A study of Mus musculus with 6 samples.

Results

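Immediate early genes are described here over 6 array profiles of mouse hippocampus, in a study of HuD-overexpressing mice. The list held Fos, Fosb, Junb, Egr1, Egr2, Arc, Nr4a1, Dusp1, Btg2 and Homer1, and every probe set annotated to 1 of these 10 genes was taken. The platform annotation used here gave 13 probe sets for 9 of them and listed none for Arc, out of 10833 probe sets naming 8251 genes. Of the 9 measured genes, 8 were expressed, meaning that the median over the 6 samples lay above the array median, as it did for 4838 genes in all. Homer1 did not pass. The members are taken by name, and the list was drawn up with earlier results of these data known.

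All 6 samples are total RNA of hippocampus and are called here by the number in their titles. HuD, the product of Elavl4, is a neuronal RNA-binding protein that binds AU-rich elements and stabilises its target mRNAs. The sources used here do not state the genotype of each sample, nor its strain, age, sex, treatment, transgene promoter, time of dissection or whether animals were pooled. No sample was therefore assigned to a group, no test between samples was made, and no replicates check a difference between 2 samples. The titles also carry an unexplained code, with the value 2 in sample 2 and the value 1 elsewhere.

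Immediate early genes are transcribed rapidly after synaptic activity or growth factor signalling, without the need for new protein synthesis. Calcium and MAP kinase signals reach their promoters through CREB, which binds the cyclic AMP response element, and through serum response factor with its Elk partners, which bind the CArG box. Their mRNAs are short-lived, and the mRNA of Fos is a classic carrier of the AU-rich elements that Hu proteins recognise. In the hippocampus they are used as markers of recently active neurons and are known to be induced by seizures, learning and novelty, and by handling stress.

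The promoters are shown because the results turn on genes that varied alike (Fos, Fosb, Egr2) and on a pair that varied in opposite ways (Nr4a1, Btg2). RefSeq windows on GRCm38.p6 were found for 8 of the 10 genes, 13 windows in all, and not for Arc or Egr1. Only the 250 bases before each listed start are used. Capitals mark the letters TGACG on either strand, the core of the cyclic AMP response element, and in Egr2 also a CArG box. The Egr2 window is 1 of 5 listed and was picked since it holds both. The windows lie at chr12:85473640-85473889 (plus strand) for Fos, chr7:19310046-19310295 (minus strand) for Fosb, chr10:67537619-67537868 (plus) for Egr2, chr15:101266596-101266845 (plus) for Nr4a1 and chr1:134079156-134079405 (minus) for Btg2, each printed 5′ to 3′ on the strand of the gene.
Fos: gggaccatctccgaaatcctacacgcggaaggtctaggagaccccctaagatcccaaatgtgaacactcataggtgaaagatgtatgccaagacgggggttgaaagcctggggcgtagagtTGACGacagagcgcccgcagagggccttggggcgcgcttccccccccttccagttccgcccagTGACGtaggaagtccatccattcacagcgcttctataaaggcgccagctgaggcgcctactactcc
Fosb: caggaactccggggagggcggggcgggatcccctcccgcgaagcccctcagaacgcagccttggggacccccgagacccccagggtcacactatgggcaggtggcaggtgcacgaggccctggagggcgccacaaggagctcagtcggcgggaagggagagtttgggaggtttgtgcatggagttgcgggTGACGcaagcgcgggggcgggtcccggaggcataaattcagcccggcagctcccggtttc
Egr2: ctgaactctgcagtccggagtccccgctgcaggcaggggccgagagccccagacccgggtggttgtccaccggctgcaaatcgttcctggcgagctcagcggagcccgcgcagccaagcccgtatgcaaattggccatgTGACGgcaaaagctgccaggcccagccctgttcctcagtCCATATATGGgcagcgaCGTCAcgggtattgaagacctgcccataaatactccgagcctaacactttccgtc
Nr4a1: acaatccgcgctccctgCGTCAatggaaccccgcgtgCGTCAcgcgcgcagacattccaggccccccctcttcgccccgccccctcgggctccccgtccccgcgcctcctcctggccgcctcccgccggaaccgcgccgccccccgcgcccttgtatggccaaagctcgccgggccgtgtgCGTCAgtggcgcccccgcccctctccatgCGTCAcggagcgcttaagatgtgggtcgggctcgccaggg
Btg2: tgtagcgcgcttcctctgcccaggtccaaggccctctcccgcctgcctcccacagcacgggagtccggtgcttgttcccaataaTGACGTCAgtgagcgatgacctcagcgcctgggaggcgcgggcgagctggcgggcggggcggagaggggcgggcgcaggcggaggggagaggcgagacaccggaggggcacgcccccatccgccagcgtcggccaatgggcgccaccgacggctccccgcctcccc

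TGACG, searched on both strands, was present in at least 1 window of all 8 genes with a window, against 19.8% of the 27025 genes in the table. By window the counts were 10 of 13, against 17.8% of all 32851 windows and 21.7% of those with a GC content of at least 46.8%, the lowest among these 13. The Egr2 windows with a match overlap and hold the same matches, so this stretch is counted more than once. The 46.8% was that of a Homer1 window, and the other windows had 54.0% to 74.4%, so the GC content is matched only loosely. In Fos the nearest match ended 61 bases before the start, and in Nr4a1 there were 4 matches. The full palindrome TGACGTCA, which contains TGACG on each strand, was in the windows of Dusp1 and Btg2, and in 1.77% of all genes. A CArG box, CC and GG around 6 A or T letters, was found for Egr2 alone of the 8, and in 1.62% of all genes. GCGTGGGCG, a sequence bound by EGR proteins, was in none of the 13 windows and in 0.622% of all genes. These are matches of letters within short windows and were not tested against the expression values.

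The data are signal intensities on a linear scale. Between the 2nd and 98th percentiles they averaged 150.0 on each array, as arrays scaled to a common target do, and the array medians lay between 59.9 and 63.3. For comparison, signals were divided by the median of their array and log2 was taken, so that a log2 value of 0 is the array median. The range of a gene is its highest minus its lowest sample on this scale. Signals under the array median are not shown to be above background, and the levels of different probe sets are not comparable. Of the pan-neuronal markers 6 were measured and all 6 were expressed. Of the dentate granule list 6 were measured and 4 expressed (Calb1, Dsp, Lct and Tdo2). Of the CA1 list 3 were measured and 3 expressed (Wfs1, Pou3f1 and Man1a), and of the CA3 list 4 were measured and 3 expressed (Bok, Spock1 and Chgb).

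The clearest pattern was shared by Fos, Fosb and Egr2, which were highest in sample 1 and lowest in sample 3. For Egr2 the value in sample 3 lay under the array median, where signals are not shown to be above background. For Fos the pattern is that of the brighter probe set. The dimmer one, under the array median throughout, did not show it. Egr1 was also highest in sample 1 and lowest in sample 3, with sample 6 nearly as low as sample 3 after scaling. Junb shared the low value in sample 3 by a small margin, and Dusp1 shared the high value in sample 1. Nr4a1 and Btg2 went otherwise. The widest gene was Fos, with a 2.21-fold range, and the narrowest was Nr4a1, with 1.25-fold.

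**Figure D1:**
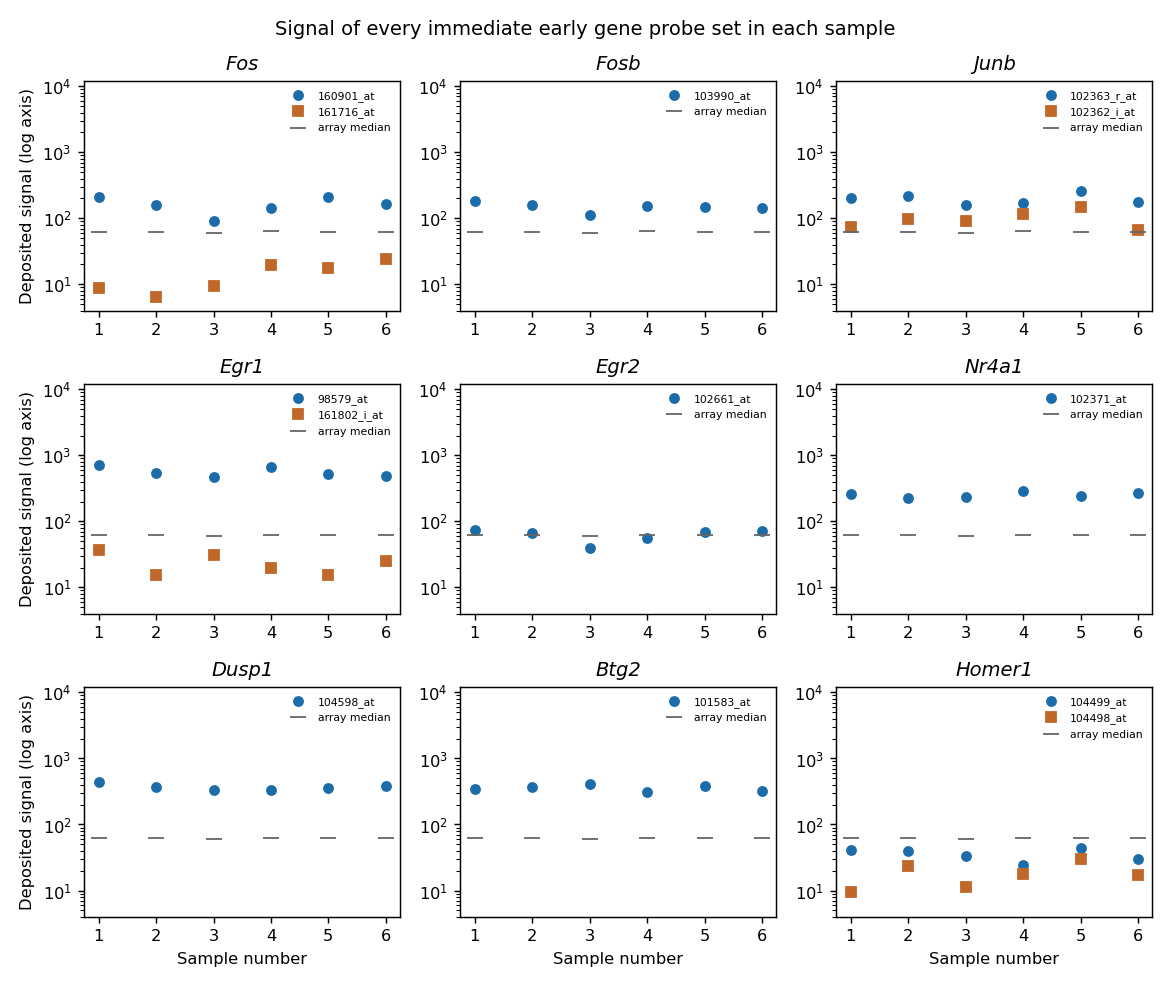
Deposited signal of all 13 probe sets of the 9 measured genes (log axis) against sample number. Circles are the brighter probe set, squares the dimmer one where a gene has a second, and dashes the array median. Fos runs from 90.8 in sample 3 to 210.3 in sample 1, and both Homer1 probe sets lie under the array median in every sample.

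Among the AP-1 genes, Fos encodes the c-Fos protein, which pairs with Jun proteins to bind DNA. Its signal was 210.3, 161.2, 90.8, 141.7, 207.5 and 162.3 in samples 1 to 6. Samples 1 and 5 were high and nearly equal, sample 3 stood alone at the low end, and the other samples lay between. The range was 1.14 on the log2 scale. Of the other 4837 expressed genes 122 (2.52%) had a range at least as large, and among the 500 genes nearest to Fos in median level 1.6% had. Without sample 3 the range of Fos was 0.58. A second Fos probe set lay between 6.37 and 24.5, below the array median throughout and at the floor (0.2 of that median) in 3 samples, and did not follow the first one (Pearson r of 0.15 over 6 samples, Spearman rho of -0.21).

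Fosb encodes the Fos relative FosB, whose truncated splice form accumulates on repeated stimulation. Its signal was 185.0, 161.3, 111.8, 151.5, 149.0 and 144.4 in samples 1 to 6. Sample 1 was the highest and sample 3 the lowest, while samples 4, 5 and 6 were close together. Its range was 0.66, a size reached by 16.9% of expressed genes, and 0.36 without sample 3. The sources used here do not say which splice form the probe set reads.

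Junb encodes JunB, a DNA-binding partner of the Fos proteins. Its brighter probe set had signals of 203.4, 214.6, 161.2, 172.7, 257.0 and 173.9 in samples 1 to 6. Sample 5 was clearly the highest, and samples 3, 4 and 6 formed a low cluster. The dimmer probe set was also highest in sample 5, at 150.7, but lowest in sample 6, at 66.2, with sample 1 next at 73.4. The ranges were 0.60 for the brighter (0.38 without sample 5) and 1.18 for the dimmer probe set, and r between them was 0.54 (rho 0.37, n = 6 samples). The suffixes of both names mark probe sets built from an incomplete or relaxed choice of probes.

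Of the zinc finger factors, Egr1, also called Zif268, is a transcription factor tied to long-term potentiation. Its bright probe set had signals of 708.8, 542.2, 463.5, 670.9, 529.5 and 490.4 in samples 1 to 6. Samples 1 and 4 stood above the other 4, and sample 3 was the lowest. The range was 0.54, which 28.2% of all expressed genes and 14.6% of the 500 genes of like level reached. A second Egr1 probe set, under the array median in all samples (15.5 to 36.5), was also highest in sample 1, but its correlation with the bright one was low (r of 0.16, rho of 0.09).

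Egr2, also called Krox20, is a relative of Egr1 that is inducible in neurons and required for myelination in peripheral nerve. Its signal was 75.2, 67.7, 38.9, 55.1, 69.8 and 71.8 in samples 1 to 6. Samples 3 and 4 were the lowest, and both lay under the array median. The range of 0.88 rests on those values and was 0.26 when values under the array median were counted at it. Without sample 3 it was 0.46. Of the 500 genes nearest in level 23.2% had a range at least as large.

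Nr4a1, or Nur77, is an orphan nuclear receptor induced by activity and by growth factors. It had signals of 258.2, 227.7, 235.1, 293.7, 242.4 and 271.2 in samples 1 to 6. Sample 4 was the highest and sample 2 the lowest, with the other samples spread evenly between them. Its range of 0.32 was below the median of all expressed genes (0.40), and 67.3% of them varied at least as much.

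Dusp1 encodes a nuclear phosphatase that switches off MAP kinases. Its signal was 443.8, 367.6, 335.5, 336.9, 352.2 and 383.4 in samples 1 to 6. Sample 1 stood apart and the other samples were close, so that the range of 0.41 became 0.20 without sample 1. After scaling sample 4 was the lowest, and in the deposited signals sample 3.

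Btg2 encodes an antiproliferative protein that recruits mRNA deadenylases. Its signal was 342.5, 366.6, 405.1, 305.2, 382.2 and 325.9 in samples 1 to 6. Sample 3, the lowest for 5 of the other genes, was here the highest, and sample 4 was the lowest. The range was 0.49, and 35.8% of expressed genes reached it.

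Homer1 encodes a scaffold of the postsynaptic density, and its short form is the inducible one, which displaces the long forms from glutamate receptors. Its brighter probe set had signals of 40.4, 39.2, 33.6, 24.4, 43.9 and 30.3 in samples 1 to 6, and the other 9.45, 23.2, 11.2, 17.8, 30.2 and 16.9. Both were under the array median throughout and both were highest in sample 5. Their lowest samples differed, with r of 0.29 between them (rho 0.26). The sources used here do not say which form each reads, and no statement on Homer1 levels can be drawn from values this low.

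**Figure D2:**
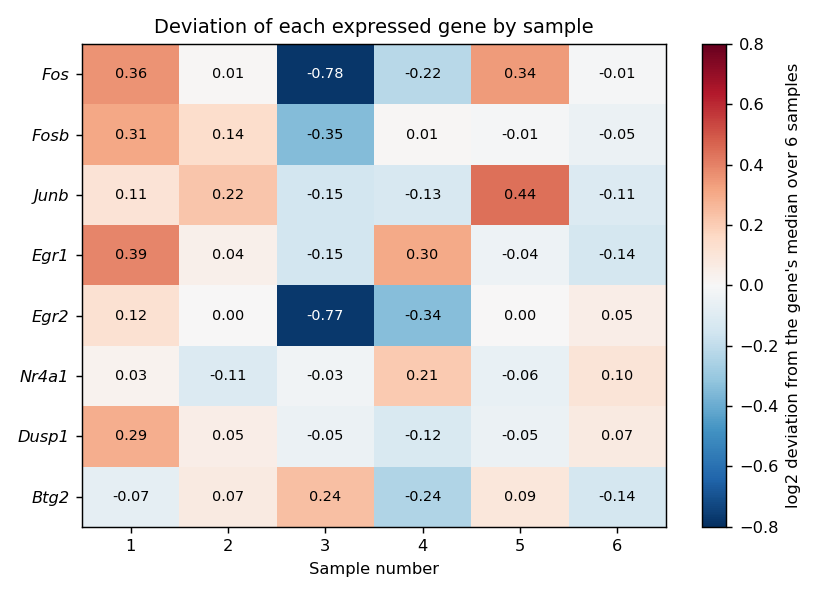
Colour and numbers give the log2 deviation of each of the 8 expressed genes (rows) from its own median over the 6 samples (columns). Fos and Egr2 are lowest in sample 3 (-0.78 and -0.77), and Btg2 is highest there (0.24). The Egr2 signal in sample 3 is under the array median.

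Counted over the 8 expressed genes, 5 were highest in sample 1 (Fos, Fosb, Egr1, Egr2 and Dusp1), where 17.3% of all expressed genes were highest. Another set of 5 was lowest in sample 3 (Fos, Fosb, Junb, Egr1 and Egr2), against 11.1% of all expressed genes. At the high end the margin on the log2 scale was small for Fos, at 1.74 in sample 1 and 1.72 in sample 5. Egr2 was at 0.26 in sample 1 and 0.19 in sample 6, and Egr1 at 3.5 in sample 1 and 3.41 in sample 4. At the low end the margins were small for Egr1 and Junb. Egr1 was at 2.95 in sample 3 and 2.96 in sample 6, and Junb at 1.43 in sample 3 and 1.45 in sample 4. The dimmer Junb probe set was lowest in sample 6. The count lowest in sample 3 was not planned and was taken up after the values were seen. Sample 1 had the largest count of highest values among the 6 samples, and the rules were chosen with earlier results of these data known. The 17.3% and the 11.1% beside the counts are therefore descriptions only. Sample 3 was the highest sample for 31.1% of all expressed genes, and for Btg2 alone among these 8. With quantile normalization the counts were 5 and 6, against 21.6% and 16.4% of genes, and with no scaling 5 and 6, against 21.5% and 17.7%. The added gene was Dusp1 in both. With the mean of probe sets in place of the brightest, Fos failed the filter, and 4 of the 7 genes left were highest in sample 1 and 2 lowest in sample 3. Above the 75th percentile of level 4 genes were left, 2 of them highest in sample 1 and 1 lowest in sample 3. The score of a sample, the median deviation over the 8 genes, was 0.20, 0.04, -0.15, -0.13, 0.00 and -0.03 for samples 1 to 6. The score of sample 3 was -0.08 without sample 1, -0.09 without sample 2, -0.23 without sample 6, -0.05 with probe sets averaged and -0.04 above the 75th percentile of level, and that of sample 4 was -0.05 without sample 1 or sample 2. The score of sample 1 lay between 0.12 and 0.27 under all settings run.

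The median range of the 8 genes was 0.57, against 0.40 for all expressed genes, and 7 of the 8 lay above that value of all genes. Such a range was not particular to these genes. Lists of cell-type markers had median ranges on both sides of it, such as 0.65 for dentate granule and 0.61 for myelin genes. The median was 0.39 for pan-neuronal and 0.36 for microglia genes. A range over 1, that is, more than 2-fold, was found in 1 of the 8 genes, Fos, and in 4.13% of all expressed genes.

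**Figure D3:**
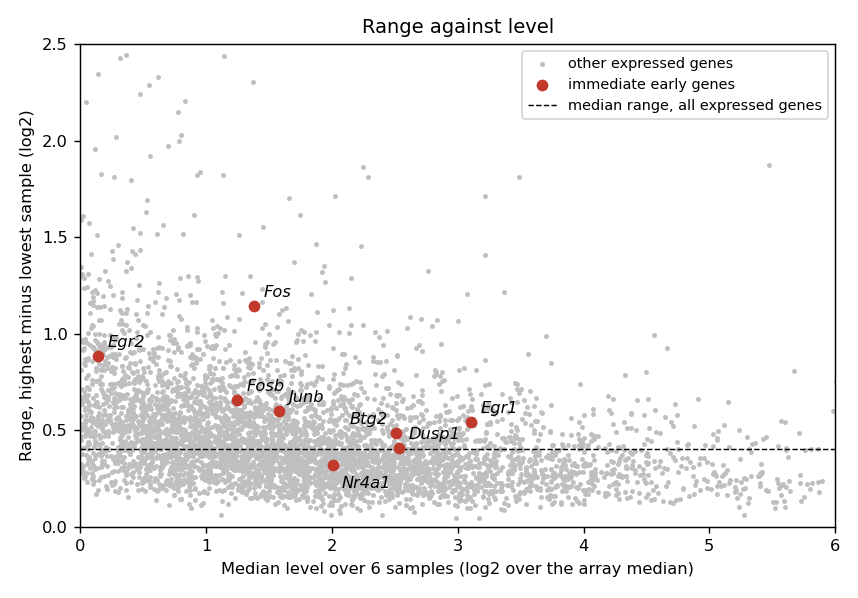
Range over the 6 samples (log2, vertical) against median level (log2 over the array median, horizontal) for the 8 immediate early genes (red) and the other expressed genes (grey). Fos, with a range of 1.14, lies above most genes of its level, and Nr4a1 lies under the dashed median of 0.40. A further 43 of the 4838 genes fall outside the axes.

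Of the 4 control ratios that reflect RNA integrity, 2 were highest in sample 3. The 3' to 5' signal ratio in sample 3 was 3.47 for the transferrin receptor control, against 2.54 to 3.02 in the other samples. For pyruvate carboxylase the ratio was 3.56, against 1.57 to 2.61. The beta-actin and Gapdh ratios were highest in sample 1, at 1.27 and 0.86, and mid-range in sample 3, at 1.21 and 0.82, with the lowest values, 1.11 and 0.79, in sample 2. The part of RNA quality in the low Fos, Fosb and Egr2 signals of sample 3 was not tested.

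Correlations between the genes over the 6 samples describe how alike they varied. Of 28 pairs, 9 had a Pearson r over 0.5, 3 had an r under -0.5, and the mean was 0.18. That mean was 0.09 without sample 1, 0.00 when probe sets were averaged and -0.14 when only genes above the 75th percentile of level were kept. The share of all pairs of expressed genes with such r values was not computed, and over 6 samples they are not rare. For example, 9.39% of the other expressed genes had an r to Fos as high as that of Dusp1 (0.52). The highest r among the 28 pairs was that of Fos with Egr2 (r of 0.94, rho of 0.83), and only 0.207% of the other expressed genes had an r to Fos as high. Leaving out sample 3 lowered it to 0.76, the lowest of the 6 values with 1 sample left out. Fos with Fosb had an r of 0.83 (rho 0.71), which 1.61% of genes reached, and 0.48 without sample 3. Fosb with Egr2 had an r of 0.83 but a rho of 0.49, and 0.42 without sample 3. For each of these 3 pairs the lowest r came without sample 3. The Egr2 value in sample 3 lay under the array median. The r values of Egr2 therefore rest partly on a signal not shown to be above background.

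Fos with Junb had an r of 0.72 (rho 0.83), which stayed between 0.65 and 0.78 whichever sample was left out. Egr1 followed Fosb with an r of 0.74 (rho 0.94, and r of 0.52 without sample 1), and its r with Fos was 0.43 (0.06 without sample 3). Dusp1 had an r of 0.67 with Fosb and 0.25 without sample 1. Nr4a1 and Btg2 were the most opposed pair, at -0.84 (rho -0.77), and r lay between -0.98 and -0.69 with any 1 sample left out. Of the other expressed genes 2.73% had an r to Nr4a1 as low as that of Btg2. Nr4a1 was also opposed to Junb (r of -0.65, rho of -0.60), and 8.27% of the other expressed genes had an r to Junb as low.

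**Figure D4:**
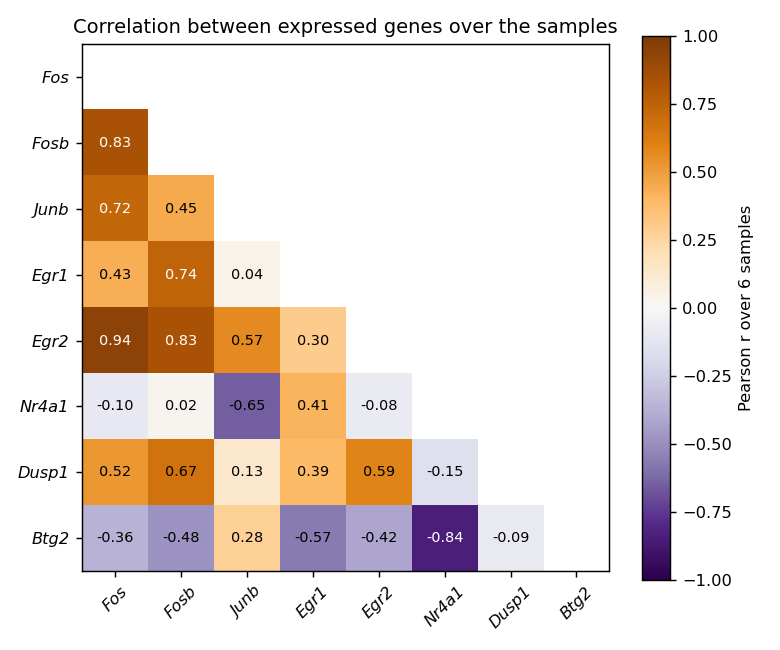
Pearson r over 6 samples for each of the 28 pairs of expressed immediate early genes, with colour from -1 to 1. Fos, Fosb and Egr2 form the block of high values (0.83 to 0.94), and Nr4a1 with Btg2 is the lowest, at -0.84. The r values of Egr2 rest partly on signals under the array median.

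Other genes of the same programme were taken from lists chosen by function. Of 22 further early transcription factors, 17 were measured and 7 expressed (Jun, Jund, Nr4a2, Klf6, Klf9, Klf10 and Per1). Of these 7, 1 was highest in sample 1 and 1 lowest in sample 3, near the shares of all expressed genes (17.3% and 11.1%), and their median range was 0.38. The widest was Nr4a2, or Nurr1, a relative of Nr4a1, with signals of 251.9, 316.2, 174.5, 292.0, 291.5 and 221.1 in samples 1 to 6. Like Fos it was lowest in sample 3, but it was highest in sample 2. Per1, an early gene that is also part of the circadian clock, ranged 1.45-fold and was highest in sample 3, at 177.5, with sample 1 at 177.4, and lowest in sample 6, at 128.6.

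Of 27 other early effector genes 19 were measured and 14 expressed, 4 of them highest in sample 1 and 2 lowest in sample 3, with a median range of 0.47. Over all expressed genes the shares were 17.3% and 11.1%, so the first count lies somewhat above its share and the second is near it. Ccn2, a secreted matrix protein and serum response target, ranged most, with signals of 106.2, 92.2, 55.4, 44.0, 65.0 and 75.2 in samples 1 to 6. It was highest in sample 1 like Fos and lowest in sample 4, and samples 3 and 4 lay under the array median. Ier3, an early response gene linked to cell survival, ranged from 58.1 in sample 4 to 96.5 in sample 1, and after scaling sample 2 was the highest.

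Of 14 later genes 10 were expressed, and 1 was highest in sample 1 and 0 were lowest in sample 3, again near the shares of 17.3% and 11.1% over all expressed genes. Plat, tissue plasminogen activator, was highest in sample 4 (366.6) and lowest in sample 1 (168.1), the sample where Fos was highest. Bdnf, the activity-regulated neurotrophin, was also highest in sample 4 and lowest in sample 1. Of 22 names listed as upstream regulators, with Mrtfa also entered under its former symbol Mkl1, 9 were expressed. Of these 9, 1 was highest in sample 1 and 2 were lowest in sample 3, beside 17.3% and 11.1% of all expressed genes. Mef2c, an activity-dependent transcription factor of neurons, had signals of 491.8, 261.2, 213.6, 286.3, 243.8 and 291.2 in samples 1 to 6, with the same highest and lowest samples as Fos and sample 1 far above the rest. Mef2a, its relative, was instead highest in sample 4 (558.7) and lowest in sample 1 (370.6).

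Among partners of single members, Nab1 and Nab2, corepressors of EGR proteins, ranged 1.27-fold and 1.32-fold and were both lowest in sample 6. Of 8 Homer relatives and partners 2 were measured, and both were lowest in sample 1 after scaling. Homer2 ranged 1.57-fold and Homer3 1.27-fold.

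The genes outside the list most like the score over the 6 samples were Dhh, a hedgehog ligand, at an r of 0.98, Ube2s, a ubiquitin-conjugating enzyme, Larp1, an RNA-binding protein, and Acaa1b, a peroxisomal thiolase, at 0.97 each, and Ddx19b, an RNA helicase, at 0.94. Their rho values lay between 0.94 and 1.0. Ube2s, for example, had signals of 212.8 in sample 1 and 128.0 in sample 3. The most opposed were Apbb2 and Susd6 at -0.99 and Aldh1a1 at -0.98. An r of at least 0.9 to the score was reached by 22 of 4830 genes. With 6 samples such ranks are descriptions, and the Dhh probe set carries a name that marks it as shared within a gene family.

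Cell-type markers beside these genes did not all lie flat. Expressed pan-neuronal markers (6 of 7 listed) had scores between -0.08 and 0.10, and dentate granule markers (4 of 7) between -0.11 and 0.01, with -0.01 in sample 1 and -0.04 in sample 3. These scores are medians, and some markers in both lists varied more. Map2 had a range of 1.01 and was lowest in sample 1, and Lct had a range of 0.94 and was highest in sample 4. CA1 markers (3 of 5) were highest in sample 5 (0.33), where Junb was highest and Fos second highest, and had -0.10 in sample 1 and 0.00 in sample 3. Endothelial and mural markers (5 of 12) scored 0.12, 0.36, -0.21, -0.12, 0.01 and 0.02 in samples 1 to 6, lowest in sample 3 like Fos. Meningeal and fibroblast markers (6 of 9) scored 0.24, 0.32, -0.17, -0.15, -0.20 and 0.27. The part of vascular or meningeal tissue in the immediate early gene values was not tested, and in whole tissue a change in cell number cannot be told from a change in RNA per cell.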

How the data were processed

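RNA of 6 hippocampus samples was measured on 6 oligonucleotide arrays of 12488 probe sets, 66 of them controls. The deposited value table holds linear intensity, 1 value per probe set and array. The sources used here do not state how the authors scanned, summarised and scaled it. Gene names came from the platform annotation, and symbols were updated by gene identifier from RefSeq (10817 matched), and those with several symbols or none were left out. Signals were divided by the array's median without controls, raised to a floor of 0.2 where lower, and put on the log2 scale. For each gene the probe set of highest mean stood for it. Highest and lowest samples are those after scaling unless said otherwise. No label assigns a genotype, so no tests were made and correlations carry no p-value, since permuting samples would treat them as replicates. The number of arrays limits the precision, and no pair of the 15 pairs of arrays was identical. The genes, lists and rules were chosen with earlier results of these data known. Named were all members, the 2 widest expressed genes of each pathway list, and the 5 genes most like and 3 least like the score. Alternatives were another scaling, floor, probe set rule and filter, Spearman correlation, and each sample left out. The scripts were tested on simulated data. Python 3.11.15, pandas 2.3.3, numpy 2.4.6 and matplotlib 3.10.9 were used.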

Additional observations from a re-analysis of the deposited data

How the results depend on the processing

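Of 218 values recomputed under other settings, 197 stayed within a tolerance. For ranges and scores it was 1 standard deviation over the samples. For the mean r it was 1 standard deviation of its values with 1 sample left out. Counts could change by at most 1.5 times, whatever the number of genes or probe sets they were taken from. With the mean of probe sets Fos failed the expression filter, which left 7 genes: 2 were lowest in sample 3, 0 had a range over 1, the score of sample 4 was 0.01 and the mean r was 0.00. With the filter at the 75th percentile Egr1, Nr4a1, Dusp1 and Btg2 were left, with 2 highest in sample 1, 1 lowest in sample 3, 0 with a range over 1, a score of 0.04 for sample 4 and a mean r of -0.14. The mean r was 0.26 with quantile normalization and 0.25 with no scaling. With each sample left out in turn the mean r lay between 0.09 (without sample 1) and 0.24 (without sample 5), and the count with a range over 1 between 0 (without sample 3) and 1. The counts highest in sample 1 and lowest in sample 3 stayed at 5 whichever other sample was left out. They could not have fallen while the same genes passed the filter, since each array is scaled by itself. These leave-one-out counts are among the 197 and are no sign of stability. Likewise the range of a gene cannot change when the sample left out is neither its highest nor its lowest. A changed filter cannot alter the range of a gene that passes, nor can averaging where a gene has 1 probe set. Many of the 197 values were fixed in this way, so 197 of 218 does not measure robustness. With all 13 probe sets the counts highest in sample 1 and lowest in sample 3 were 6 and 5. That setting was chosen after seeing the data, as was the count lowest in sample 3. The mean of probe sets raised the range of Junb to 0.87 and of Egr1 to 0.83. No paired analysis was possible because no groups are known. Signals near or under the array median, as for Egr2 and Homer1, limit what can be said of those genes.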

Other observations

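The remaining lists gave scores of -0.28 in sample 1 and 0.13 in sample 3 for myelin (7 expressed genes), -0.32 and 0.12 for thalamus and habenula (4), -0.12 and 0.06 for microglia (6), -0.19 and 0.02 for CA3 (3), 0.02 and 0.17 for interneurons (8), and -0.17 and 0.09 for glucocorticoid response genes (4). Within the CA3 list the widest gene, Bok, went against the score of sample 1. It was highest there, at 447, and lowest in sample 2, at 120, with a range of 1.86. The 2 expressed choroid plexus genes, Ttr and Folr1, scored -2.92 in sample 1, -0.57 in sample 3 and 1.72 in sample 6.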
